A study of Mus musculus with 7 samples.

Results

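Potassium channel genes outside the Kv1 family were described in mouse whole neocortex: 35 genes given by symbol, from the Kv2 to Kv12 voltage-gated families, the KChIP auxiliary subunits and the inward rectifier (Kir), 2-pore-domain (K2P) and calcium-activated channels. Each was read from the probe sets annotated with that symbol alone, and the brightest stood for the gene. All 35 had a probe set, among 19936 genes with one. 34 of them, of 16144 genes in all, had a mean at or above the 25th percentile of all probe sets (a log2 signal of 6.84) and were tested; Kcnj6 was below it and is called dim.

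Total RNA of 4 CKO and 3 WT samples of strain C57BL/6 was hybridised to 1 one-colour array each, with values as RMA log2 signals. The genotype of CKO is given as COUP-TFI_Nex-Cre and that of WT as wild type; no other allele or treatment is named, and neither is an age. COUP-TFI is the nuclear receptor encoded by Nr2f1, which takes part in neocortical area patterning. Nex-Cre, expressed from the Neurod6 locus, recombines in postmitotic glutamatergic neurons, so that interneurons, glia and progenitors of the same tissue are not its target. Arrays are named by group and label number, the CKO arrays being 1, 4, 34 and 43 and the WT arrays 6, 27 and 38. Whether the 7 samples are separate animals is not stated, so the spread that p-values rest on may be technical.

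Potassium channels let potassium leave the cell and so set the resting potential, the shape of the action potential and the rate of firing. Voltage-gated Kv channels open on depolarisation, Kir channels pass current most readily near rest, K2P channels give a background leak, and BK and SK channels open when calcium rises. Kv4 channels carry KChIP and DPP subunits, Kv2 channels co-assemble with silent Kv subunits that form no channel alone, and Kir3 channels open when G protein subunits bind them. In whole tissue, fewer cells of a type and less RNA per cell cannot be told apart.

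No member passed limma's Benjamini-Hochberg adjustment over all genes, against 4 of 16144 genes (0.0248%). At an unadjusted p under 0.05 there were 5 of 34 members: Kcnip1, Kcnip2 and Kcnj10 higher in CKO, where 4.17% of all genes were, and Kcnb2 and Kcnj3 lower, where 2.61% were. All 4 CKO arrays lay above all 3 WT arrays for 3 members, Kcnip1, Kcnip2 and Kcnj10 (background 5.39%), and below them for 2, Kcnb2 and Kcnj4 (background 2.99%). The gap between the groups was narrow for each of these 5 genes, from 0.0019 to 0.030 on the log2 scale. Of the 34 differences, 19 were positive (55.9%, against 58.9% of all genes tested) and 15 negative. Their median was 0.03 against 0.01 for all genes tested, and the median size without sign was 0.07 against 0.05. The smallest adjusted p of a member was 0.711. Members without overlap numbered 10 without WT 6 (17.8% of all genes then had none), 9 without WT 27 (23.2%), and 8 each without CKO 1 (10.9%) and without CKO 4 (9.76%). Without WT 38 they numbered 6 of 34 (17.6%), below the 22.2% of all genes.

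**Figure D1:**
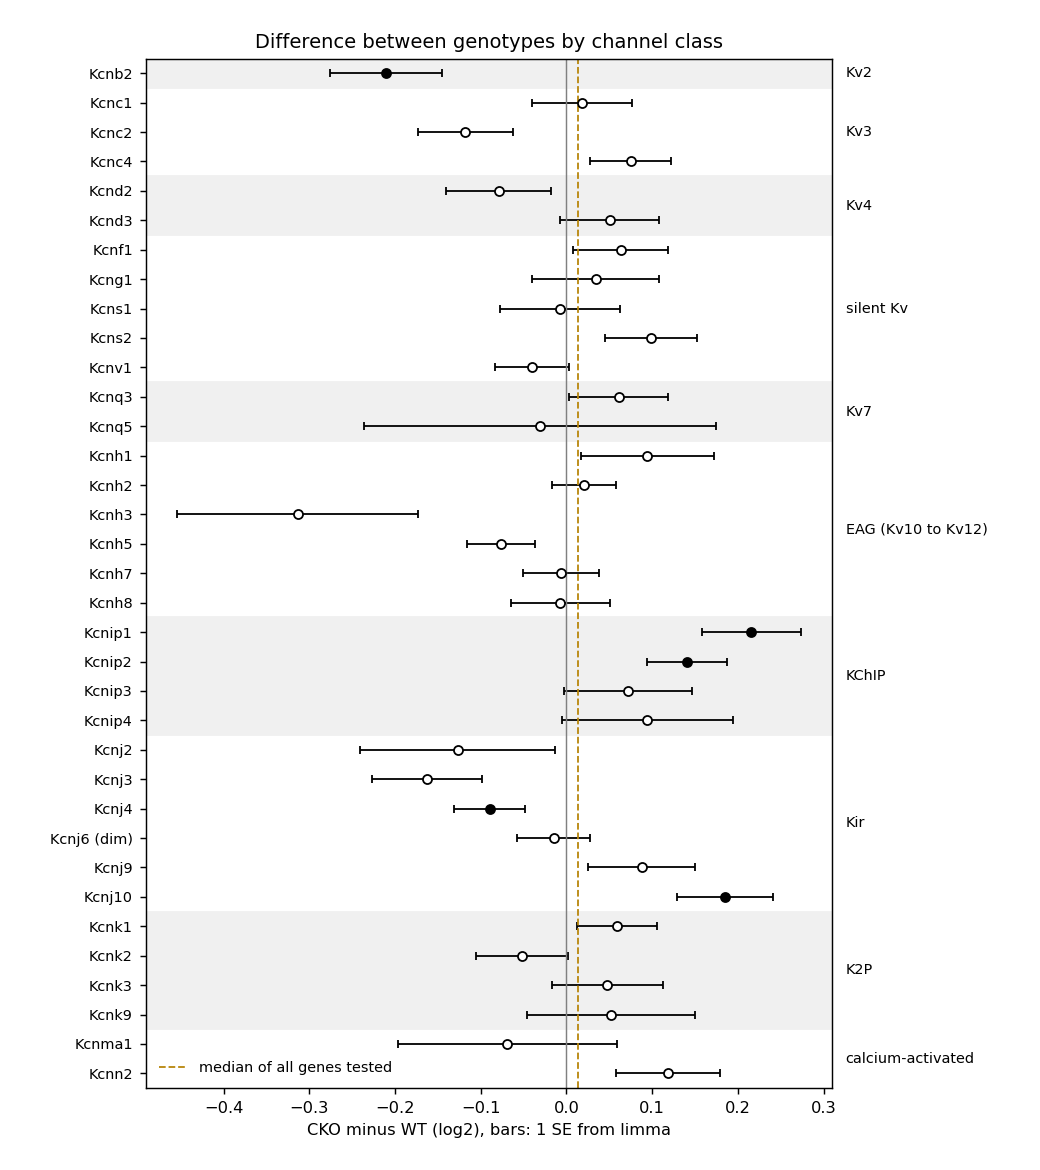
CKO minus WT on the log2 scale for the 35 genes, by class, with 1 SE from limma. Filled points mark the 5 genes whose groups did not overlap; the dashed line is the median of all genes tested (0.01). The 4 KChIP genes lie to the right of 0, and Kcnh3 has the largest difference to the left, -0.31.

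COUP-TF receptors bind pairs of the half-site AGGTCA, so the members' promoters were searched for it. The RefSeq table of GRCm38.p6 held 39 transcription starts of 26 of the 35 genes, each with 250 bases before and 50 after the start. AGGTCA on either strand (TGACCT on the printed strand is the same site read from the other) was in 3 of the 39, or 7.69%, against 16.3% of all 32851 starts. These 3 were Kcnf1, with 2 matches, Kcnh1 and Kcnip4, none of them among the 6 members with an unadjusted p under 0.05 or groups that did not overlap. These matches are printed with their surroundings, 5′ to 3′ and with the half-site in capitals, since they are all that the members' windows hold.
Kcnf1 (chr12:17176993-17177032, minus strand): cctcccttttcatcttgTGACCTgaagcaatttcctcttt
Kcnf1 (chr12:17176940-17176979, minus strand): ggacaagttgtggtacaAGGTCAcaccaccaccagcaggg
Kcnh1 (chr1:192190537-192190576, plus strand): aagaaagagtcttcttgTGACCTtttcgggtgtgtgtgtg
Kcnip4 (chr5:49285754-49285793, minus strand): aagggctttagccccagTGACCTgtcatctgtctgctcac

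For 4 of those 6 members, each with 1 start in the table, the 250 bases before the start are given for comparison. Capitals mark the GC box GGGCGG or its complement CCGCCC. None of the 4 held the half-site or the letters TATAAA. A GC box on either strand was in 53.8% of the members' 39 starts and 35.7% of all starts, and TATAAA in 2.56% and 13.6%. Matches are letters only, and binding was not measured here.
Kcnip2 (chr19:45816064-45816313, minus strand): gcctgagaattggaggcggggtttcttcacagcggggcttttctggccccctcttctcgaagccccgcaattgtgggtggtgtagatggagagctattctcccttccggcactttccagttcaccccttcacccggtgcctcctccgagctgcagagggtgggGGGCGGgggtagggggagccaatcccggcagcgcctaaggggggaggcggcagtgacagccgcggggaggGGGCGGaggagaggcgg
Kcnj10 (chr1:172340960-172341209, plus strand): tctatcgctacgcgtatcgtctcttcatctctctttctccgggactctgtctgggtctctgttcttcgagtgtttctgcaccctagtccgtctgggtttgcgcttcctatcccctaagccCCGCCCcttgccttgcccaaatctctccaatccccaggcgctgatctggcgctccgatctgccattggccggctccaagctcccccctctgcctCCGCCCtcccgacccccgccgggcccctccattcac
Kcnj3 (chr2:55435720-55435969, plus strand): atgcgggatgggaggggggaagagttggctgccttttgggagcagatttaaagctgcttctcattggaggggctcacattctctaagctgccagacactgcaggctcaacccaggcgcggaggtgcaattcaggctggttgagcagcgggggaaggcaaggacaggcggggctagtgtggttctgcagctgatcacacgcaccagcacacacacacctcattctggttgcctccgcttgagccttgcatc
Kcnj4 (chr15:79505242-79505491, minus strand): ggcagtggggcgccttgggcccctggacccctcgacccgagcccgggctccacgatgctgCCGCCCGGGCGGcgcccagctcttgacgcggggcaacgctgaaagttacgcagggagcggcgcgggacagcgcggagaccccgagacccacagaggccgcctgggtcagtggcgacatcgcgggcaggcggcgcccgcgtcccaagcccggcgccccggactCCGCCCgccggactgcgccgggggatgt

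The Kcnip2 and Kcnj10 stretches each hold 2 GC boxes, Kcnj4 holds 3, of which 2 adjoin, and Kcnj3 none before the start. The share of G and C was 66.8% for Kcnip2, 62.0% for Kcnj10, 58.4% for Kcnj3 and 77.2% for Kcnj4.

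Nr2f1 itself ranged from 10.60 to 10.79 in CKO and from 10.88 to 11.16 in WT, a difference of -0.36 (SE 0.074, adjusted p 0.435 in limma). Whether its probe set lies in the deleted part is not known here. Neurod6, whose locus carries the Cre, differed by -0.20 (SE 0.057, adjusted p 0.711). Of 9 markers of cortical glutamatergic neurons on the arrays, all were above the 25th percentile, Tbr1, Neurod2 and Slc17a7 among them. Their differences were mixed, 4 positive and 5 negative, with a median of -0.0022. At an unadjusted p under 0.05 in limma, 2 were higher, Tbr1 (0.14) and Bcl11b (0.15), and 1 was lower, Neurod6. Of all genes tested, 4.17% were higher and 2.61% lower at that p. No array lot is named for these samples. The groups called array lots here were inferred from shared digits in the sample titles. CKO 1 and CKO 4 were placed in lot 1, CKO 34, CKO 43, WT 27 and WT 38 in lot 2 and WT 6 in lot 3. By this grouping, lot 2 alone held both genotypes. It is not known if such a lot was also a batch of processing, so values by lot carry that limit. Y-linked genes, centred per gene, averaged -3.64 on CKO 43 and 0.32 to 0.72 on the other 6 arrays, and their mean was a covariate in 1 of the alternatives.

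KChIP proteins are calcium-binding subunits that raise the surface expression of Kv4 channels and change their inactivation. All 4 had a positive difference, where 58.9% of all genes tested had one. For 2 of them the groups did not overlap, where 5.39% of all genes tested were higher in CKO without overlap. Kcnip1 (probe set 10385096), the KChIP1 gene, was at 10.89 on CKO 1, 10.88 on CKO 4, 10.77 on CKO 34 and 10.92 on CKO 43, against 10.76 on WT 6, 10.61 on WT 27 and 10.58 on WT 38. The lowest CKO array, CKO 34, lay just above the highest WT array, WT 6. The difference was 0.22 (SE 0.058, unadjusted p 0.00541, adjusted p 0.711), or 1.16-fold. Within lot 2 it was 0.25.

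Kcnip2 (probe set 10468113), the KChIP2 gene, was at 8.87 on CKO 1, 8.77 on CKO 4, 8.87 on CKO 34 and 8.94 on CKO 43, against 8.69 on WT 6, 8.73 on WT 27 and 8.74 on WT 38. The WT arrays lay close together, and CKO 4 was the CKO array nearest to them. The difference was 0.14 (SE 0.047, unadjusted p 0.0162, adjusted p 0.711), or 1.10-fold, and 0.17 within lot 2. With striatal signal as a covariate (the average over Penk, Drd2, Ebf1, Six3 and Isl1), it was 0.08 (SE 0.071). Centred per gene, this average ran from -0.183 to 0.549 on the CKO arrays and from -0.502 to -0.184 on the WT arrays. The median difference of its 5 genes was 0.50, against 0.24 for the 9 striatal markers tested. The covariate thus nearly followed genotype, and all differences given with it carry that limit. With it, 7 of 34 members (20.6%) were at an unadjusted p under 0.05 in limma, against 11.1% of all genes tested.

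Kcnip3, which encodes KChIP3, also called DREAM or calsenilin, differed by 0.07 (SE 0.075) with groups that overlapped: CKO ran from 11.94 to 12.21 and WT from 11.93 to 12.13. Kcnip4 differed by 0.09 (SE 0.10), and its highest array was CKO 1 at 8.54, against 8.10 to 8.29 on the other CKO arrays. Without CKO 1 the difference of Kcnip4 was 0.0079 (SE 0.069). Within lot 2 both turned to the other direction, -0.07 for Kcnip3 and -0.03 for Kcnip4, so that 2 of the 4 KChIP genes were higher in CKO there. With the striatal covariate Kcnip3 differed by 0.27 (SE 0.076, unadjusted p 0.00832, adjusted p 0.361) and Kcnip4 by 0.16 (SE 0.160).

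**Figure D2:**
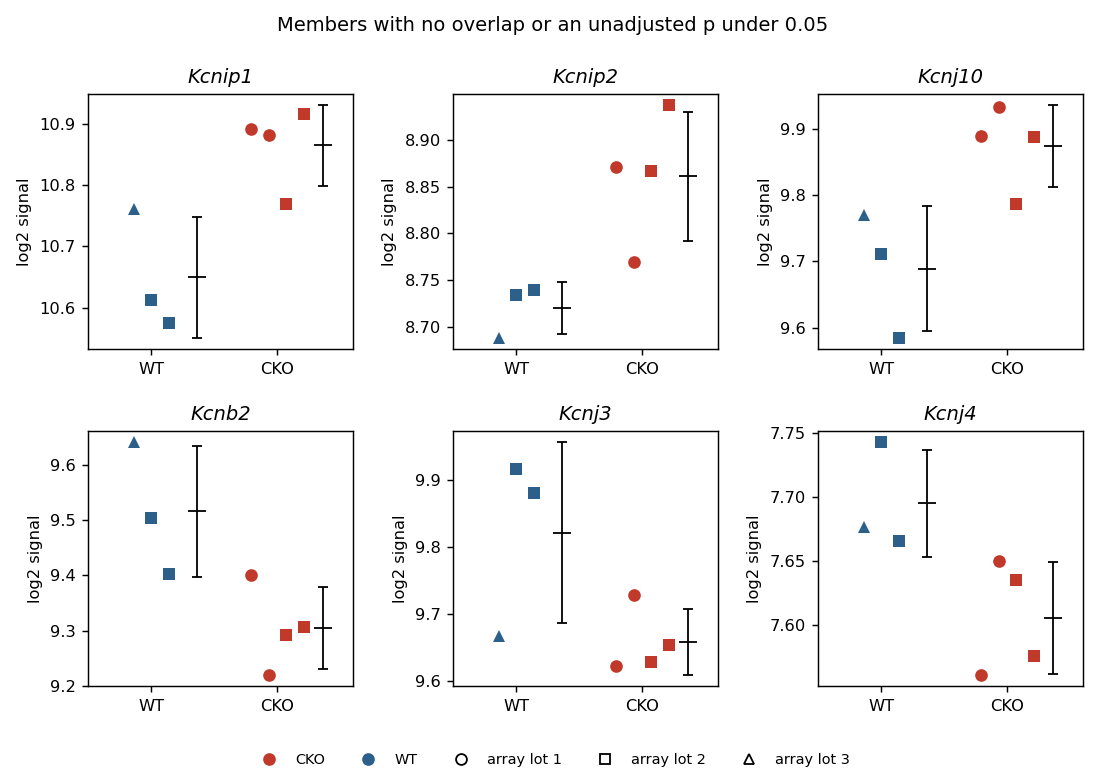
Log2 signal on each array (points; colour gives genotype, shape gives array lot) for the 6 genes with groups that did not overlap or an unadjusted p under 0.05, with mean and SD beside each group. Kcnip1, Kcnip2 and Kcnj10 are higher on the CKO arrays and Kcnb2, Kcnj3 and Kcnj4 lower; for Kcnj3, WT 6 lies among the CKO arrays. Vertical axes differ between panels and do not start at 0.

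The Kv4 channels that KChIP subunits join carry the fast A-type current of dendrites. Kcnd2, the Kv4.2 gene (probe set 10536611), was at 9.96 on CKO 1, 9.70 on CKO 4, 9.78 on CKO 34 and 9.86 on CKO 43, against 9.88 on WT 6, 9.95 on WT 27 and 9.89 on WT 38. CKO 1 was the highest of all and the other 3 CKO arrays were the lowest. The difference was -0.08 (SE 0.061, adjusted p 0.783). Without CKO 1 it was -0.12, and the groups no longer overlapped. Kcnd3, the Kv4.3 gene, differed by 0.05 (SE 0.058), with 10.48 to 10.69 in CKO and 10.44 to 10.57 in WT, and by -0.05 within lot 2. Their other subunits Dpp6 and Dpp10, dipeptidyl peptidase-like proteins, differed by -0.16 (SE 0.104) and -0.15 (SE 0.085), both with overlapping groups.

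Kv2 channels carry the delayed rectifier current of the cell body. Kcnb2, the Kv2.2 gene (probe set 10344935), was at 9.40 on CKO 1, 9.22 on CKO 4, 9.29 on CKO 34 and 9.31 on CKO 43, against 9.64 on WT 6, 9.50 on WT 27 and 9.40 on WT 38. CKO 1 and WT 38 met at the border, 0.0019 apart, and the other arrays were well separated. The difference was -0.21 (SE 0.065, unadjusted p 0.0113, adjusted p 0.711), to 86.4% of the WT signal. Within lot 2 it was -0.15.

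Silent Kv subunits do not conduct alone and modify Kv2 channels. The 5 members of this class differed by -0.04 to 0.10, with none at an unadjusted p under 0.05. Kcns2, the Kv9.2 gene (probe set 10423647), had the smallest p: it was at 7.24 on CKO 1, 7.37 on CKO 4, 7.29 on CKO 34 and 7.18 on CKO 43, against 7.14 on WT 6, 7.24 on WT 27 and 7.12 on WT 38. CKO 43 and CKO 1 lay below WT 27. The difference was 0.10 (SE 0.054, adjusted p 0.739); without WT 27 it was 0.14 and the groups no longer overlapped. With the striatal covariate it was 0.19 (SE 0.076, unadjusted p 0.0397, adjusted p 0.425).

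Kcnf1 (Kv5.1) differed by 0.06, Kcng1 (Kv6.1) by 0.03, Kcns1 (Kv9.1) by -0.01 and Kcnv1 (Kv8.1) by -0.04, each with overlapping groups. Kcng1 ranged from 10.69 on WT 38 to 10.98 on WT 27, so that both its lowest and its highest array were WT. A silent subunit gene from the list of other pore genes, Kcng3 (Kv6.3), had a larger difference than any member. It was at 7.51 on CKO 1, 7.09 on CKO 4, 7.58 on CKO 34 and 7.41 on CKO 43, against 7.82 on WT 6, 8.11 on WT 27 and 7.96 on WT 38. All CKO arrays lay at least 0.24 below all WT arrays, and the difference was -0.57 (SE 0.118, unadjusted p 0.00123), which did not pass either (adjusted p 0.451). Amigo1, an adhesion protein that joins Kv2 channels, differed by 0.10 (SE 0.048, adjusted p 0.726), with groups that did not overlap.

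Kv3 channels close fast and allow neurons to fire at high rates. Kcnc2, the Kv3.2 gene (probe set 10366391), was at 8.40 on CKO 1, 8.32 on CKO 4, 8.34 on CKO 34 and 8.33 on CKO 43, against 8.37 on WT 6, 8.59 on WT 27 and 8.44 on WT 38. WT 27 stood highest, and WT 6 lay among the CKO arrays. The difference was -0.12 (SE 0.056, adjusted p 0.726), and without WT 27 it was -0.06. Kcnc4 (Kv3.4) differed by 0.07 (SE 0.047) and Kcnc1 (Kv3.1) by 0.02 (SE 0.059), each with overlapping groups; for both CKO 1 was the highest array.

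Kv7 channels carry the M current, which muscarinic receptors close. Kcnq3, the Kv7.3 gene (probe set 10429083), was at 11.08 on CKO 1, 11.09 on CKO 4, 11.23 on CKO 34 and 11.17 on CKO 43, against 10.98 on WT 6, 11.08 on WT 27 and 11.17 on WT 38. CKO 1, CKO 4 and CKO 43 lay within the range of the WT arrays, and the difference was 0.06 (SE 0.058, adjusted p 0.820). Kcnq5, the Kv7.5 gene (probe set 10353460), was at 9.72 on CKO 1, 9.26 on CKO 4, 10.18 on CKO 34 and 9.76 on CKO 43, against 9.54 on WT 6, 9.66 on WT 27 and 10.08 on WT 38. Its SD was 0.378 in CKO (n = 4), the largest of the members there, and 0.280 in WT (n = 3), where Kcnh3 and Kcnma1 varied more. Its residual SD over both groups was the largest of the 34 members tested, at the 99.5th percentile of all genes. Kcnq5 differed by -0.03 (SE 0.206), by 0.10 (SE 0.207) within lot 2 and by -0.61 (SE 0.188, unadjusted p 0.0139, adjusted p 0.375) with the striatal covariate. Chrm1, the muscarinic receptor M1 gene, differed by -0.11 (SE 0.068).

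The BK channel gene Kcnma1 (probe set 10418053) had an order of arrays close to that of Kcnq5. It was at 9.31 on CKO 1, 9.24 on CKO 4, 9.53 on CKO 34 and 9.28 on CKO 43, against 9.15 on WT 6, 9.36 on WT 27 and 9.71 on WT 38. For both genes CKO 34 and WT 38 were the 2 highest arrays, and CKO 4 and WT 6 the 2 lowest. Kcnma1 differed by -0.07 (SE 0.128) by 0.08 without WT 38 and by -0.26 (SE 0.189) with the striatal covariate; its second, dimmer probe set, 10582545, lay below the 25th percentile with equal means of 6.34. Its auxiliary subunit gene Kcnmb2 differed by -0.13 (SE 0.045, unadjusted p 0.0207, adjusted p 0.716). Its groups did not overlap, but CKO 1 and WT 27 were only 0.00037 apart.

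Kcnn2 encodes the SK2 channel, which calcium opens through bound calmodulin and which follows each burst with a hyperpolarisation. Kcnn2 (probe set 10455514) was at 10.11 on CKO 1, 10.17 on CKO 4, 10.28 on CKO 34 and 10.26 on CKO 43, against 9.98 on WT 6, 10.12 on WT 27 and 10.16 on WT 38. The 3 highest arrays were CKO, while CKO 1 lay below WT 27 and WT 38. The difference was 0.12 (SE 0.061, adjusted p 0.730). The calmodulin genes Calm2 and Calm3 differed by 0.03 (SE 0.035) and -0.02 (SE 0.096).

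EAG family channels (Kv10, Kv11 and Kv12) open near rest and shape the threshold of firing. The largest difference of any member was that of Kcnh3, a Kv12 channel gene expressed in forebrain (probe set 10426704), at 9.39 on CKO 1, 9.41 on CKO 4, 9.10 on CKO 34 and 9.27 on CKO 43, against 9.34 on WT 6, 9.96 on WT 27 and 9.51 on WT 38. WT 27 stood far above the rest and WT 6 lay among the CKO arrays. The difference was -0.31 (SE 0.141, adjusted p 0.726), to 80.4% of the WT signal. It was -0.13 without WT 27, -0.55 within lot 2 and 0.01 (SE 0.170) with the striatal covariate.

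The other 5 EAG genes differed by less than 0.10 in either direction. Kcnh5 (Kv10.2) was the nearest to a separation, with 9.50 to 9.58 in CKO and 9.56 to 9.65 in WT, a difference of -0.08 (SE 0.040, adjusted p 0.730). Kcnh1 (Kv10.1) differed by 0.09 (SE 0.078), with WT 38 at 8.19 above all CKO arrays and the other WT arrays below them; without WT 38 it differed by 0.20. Kcnh2 (Kv11.1, or HERG) differed by 0.02 (SE 0.037), Kcnh7 (Kv11.3) by -0.01 (SE 0.044) and Kcnh8 (Kv12.1) by -0.01 (SE 0.058). The second probe set of Kcnh8 gave -0.01 as well.

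**Figure D3:**
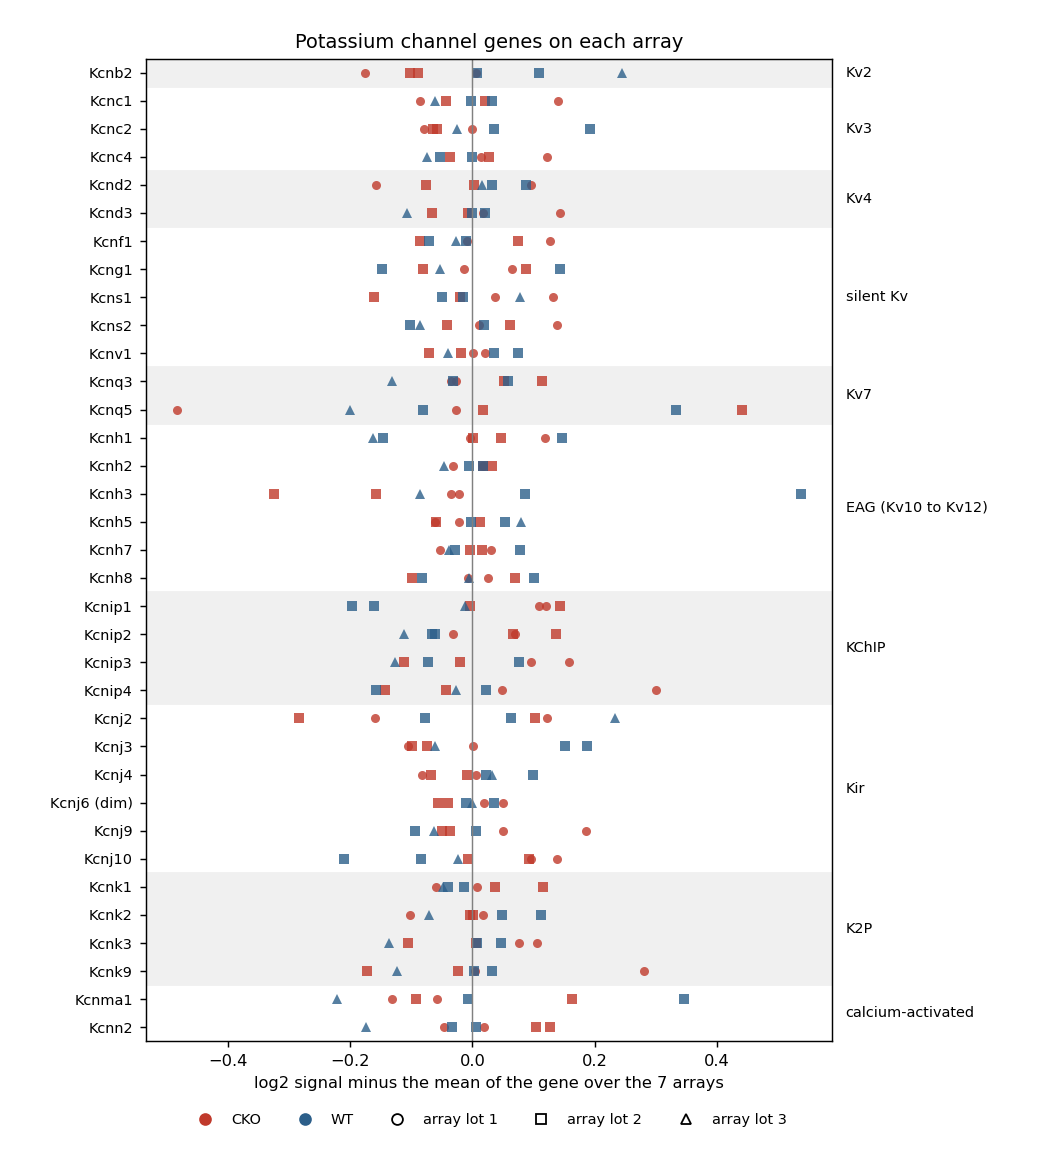
Log2 signal of the 35 genes on each array, minus the gene's mean over the 7 arrays. Colour gives genotype and shape the array lot. Kcnq5, Kcnh3 and Kcnma1 spread widest, with CKO 34 and WT 38 at the right for Kcnq5 and Kcnma1 and WT 27 alone at the right for Kcnh3.

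Kir channels fall into strong rectifiers, G protein-gated channels and the glial channel Kir4.1. Kcnj10 encodes Kir4.1, which astrocytes use to take up potassium. Kcnj10 (probe set 10351781) was at 9.89 on CKO 1, 9.93 on CKO 4, 9.79 on CKO 34 and 9.89 on CKO 43, against 9.77 on WT 6, 9.71 on WT 27 and 9.58 on WT 38. WT 38 was the lowest array, and CKO 34 and WT 6 met within 0.016. The difference was 0.19 (SE 0.056, unadjusted p 0.0102, adjusted p 0.711), or 1.14-fold, and 0.19 within lot 2.

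Markers of astrocytes and radial glia had differences of the same sign as Kcnj10. All 12 were tested and had a positive difference, 3 of them at an unadjusted p under 0.05, with a median of 0.10. Their mean, centred per gene, ran from 0.01 to 0.09 on the CKO arrays and from -0.09 to -0.01 on the WT arrays. Sox2, a progenitor transcription factor, differed by 0.20 (SE 0.048), while Aqp4, the water channel of astrocytes, differed by 0.06 (SE 0.040) and Gfap by 0.05 (SE 0.059). Genes of dividing cells had positive differences as well, with a median of 0.13 over 9 genes and a mean of 0.02 to 0.09 in CKO against -0.15 to 0.01 in WT. WT 38 was the lowest array for Kcnj10 and for both lists. The part of these cells in the difference of Kcnj10 was not tested.

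Kir3 channels are opened by G protein subunits after GABA-B, muscarinic or serotonin receptors are activated. Kcnj3, the Kir3.1 gene (probe set 10472155), was at 9.62 on CKO 1, 9.73 on CKO 4, 9.63 on CKO 34 and 9.65 on CKO 43, against 9.67 on WT 6, 9.92 on WT 27 and 9.88 on WT 38. WT 27 and WT 38 stood above all CKO arrays, and WT 6 lay below CKO 4. The difference was -0.16 (SE 0.064, unadjusted p 0.0340, adjusted p 0.723), to 89.4% of the WT signal. It was -0.26 within lot 2 and -0.06 (SE 0.092) with the striatal covariate.

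The other Kir3 genes had smaller differences. Kcnj9 (Kir3.3) differed by 0.09 (SE 0.063), with CKO 4 highest at 7.75, by 0.0011 (SE 0.055) within lot 2 and by 0.25 (SE 0.064, unadjusted p 0.00516, adjusted p 0.337) with the striatal covariate. Kcnj6 (Kir3.2), the dim member, ranged from 6.53 to 6.64 over all arrays and differed by -0.01 (SE 0.042, unadjusted p 0.732, in the fit without a filter). Among the receptors, Gabbr2, a subunit of the GABA-B receptor, was at 10.22 to 10.48 in CKO and 10.60 to 10.76 in WT, a difference of -0.32 (SE 0.075, unadjusted p 0.00265, adjusted p 0.648). Its partner Gabbr1 differed by 0.07 (SE 0.059), and Rgs4, which shortens G protein signals, by -0.29 (SE 0.114, adjusted p 0.723). The 15 tested genes of G proteins, receptors and calmodulin that act on Kir3, SK and Kv7 channels had a median difference of -0.03. At an unadjusted p under 0.05 in limma 2 of them were lower (13.3%), Gabbr2 and Rgs4, and none was higher. Of all genes tested, 2.61% were lower and 4.17% higher at that p.

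The strong rectifiers Kir2.1 and Kir2.3 hold neurons near the potassium equilibrium. Kcnj4, the Kir2.3 gene (probe set 10430533), was at 7.56 on CKO 1, 7.65 on CKO 4, 7.64 on CKO 34 and 7.58 on CKO 43, against 7.68 on WT 6, 7.74 on WT 27 and 7.67 on WT 38. The groups did not overlap, with CKO 4 and WT 38 0.016 apart. The difference was -0.09 (SE 0.041, unadjusted p 0.0612, adjusted p 0.726), and -0.05 (SE 0.064) with the striatal covariate. Kcnj2, the Kir2.1 gene, differed by -0.13 (SE 0.114), with CKO between 7.04 and 7.45 and WT between 7.25 and 7.56.

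K2P channels are open at rest and respond to acid, stretch and anaesthetics. Kcnk1, the TWIK1 gene (probe set 10576581), was at 8.90 on CKO 1, 8.84 on CKO 4, 9.01 on CKO 34 and 8.93 on CKO 43, against 8.85 on WT 6, 8.88 on WT 27 and 8.86 on WT 38. CKO 4 was the lowest of all arrays and the other 3 CKO arrays were the highest. The difference was 0.06 (SE 0.047, adjusted p 0.789), the smallest p of this class. Kcnk2 (TREK1) differed by -0.05 (SE 0.054), Kcnk3 (TASK1) by 0.05 (SE 0.065) and Kcnk9 (TASK3) by 0.05 (SE 0.098). Kcnk9 was highest on CKO 1, at 8.25, and lowest on CKO 34, at 7.79.

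Other cell types were followed by their markers too. Of all genes tested, 58.9% had a positive difference, and at an unadjusted p under 0.05 in limma 4.17% were higher and 2.61% lower. Of 9 striatal markers tested, all were positive, 6 at an unadjusted p under 0.05, with a median of 0.24; their mean ran from -0.06 on CKO 4 to 0.32 on CKO 34 in CKO, and from -0.32 to -0.14 in WT. Of 12 interneuron markers 8 were positive, 2 higher and 2 lower at an unadjusted p under 0.05. Their mean overlapped between groups, from -0.21 on CKO 4 to 0.18 on CKO 1 in CKO and from -0.13 to -0.00050 in WT. Of 6 meningeal and choroid plexus markers tested all were positive, with a median of 0.22. On CKO 4, the CKO array lowest for striatal markers, Kcnip1 was at 10.88 and Kcnj10 at 9.93, near or above the other CKO arrays, while Kcnip2 was at 8.77, its lowest CKO value. WT 27, lowest for striatal markers, was highest for Kcnh3, Kcnc2, Kcnj3 and Kcnj4, and also for Kcng1, Kcnv1 and Kcnk2. The cause of these orders of arrays was not tested. With the striatal covariate Kcnip1 differed by 0.26 (SE 0.093), Kcnj10 by 0.28 (SE 0.080) and Kcnb2 by -0.27 (SE 0.103).

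**Figure D4:**
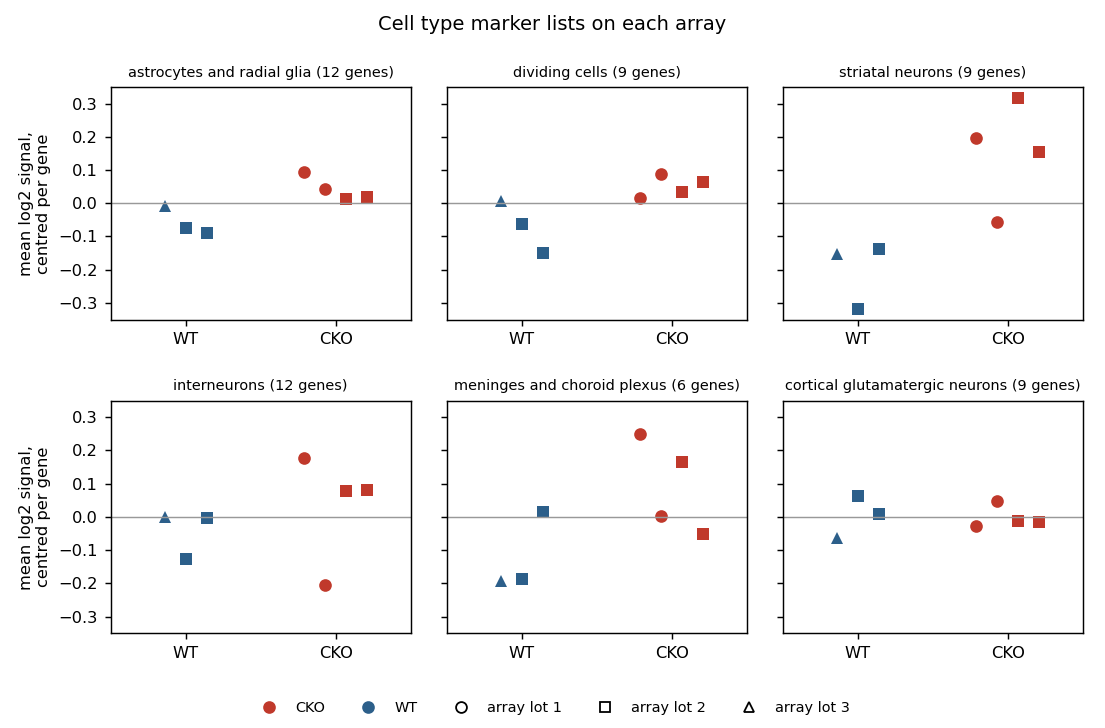
Mean log2 signal of 6 marker lists on each array, each gene centred on its mean over the 7 arrays. Colour gives genotype and shape the array lot. The WT arrays lie below the CKO arrays for astrocyte and radial glia, dividing cell and striatal markers, and the groups overlap for interneuron, meningeal and glutamatergic markers.

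Other potassium channel genes were counted against the 6.79% of all genes at an unadjusted p under 0.05. Of 31 other pore genes tested, 1 was at that p (3.23%), Kcng3, and the median was 0.03. Next to it by p were the K2P genes Kcnk13 (0.12, SE 0.053) and Kcnk16 (0.11, SE 0.052). Of 15 other auxiliary subunits 2 were higher at that p, Kcne1l and Abcc8 (0.14 each), and 1 was lower, Kcnmb2, together 20%. Of 11 genes of the Kv1 family and its beta subunits 1 passed the adjustment (0.0248% of all genes did), Kcnab1, at 7.55 to 7.73 in CKO and 8.16 to 8.33 in WT (-0.58, SE 0.060, adjusted p 0.0345); Kcna7 differed by 0.16 (SE 0.066) and Kcna4 by -0.23 (SE 0.118).

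**Figure D5:**
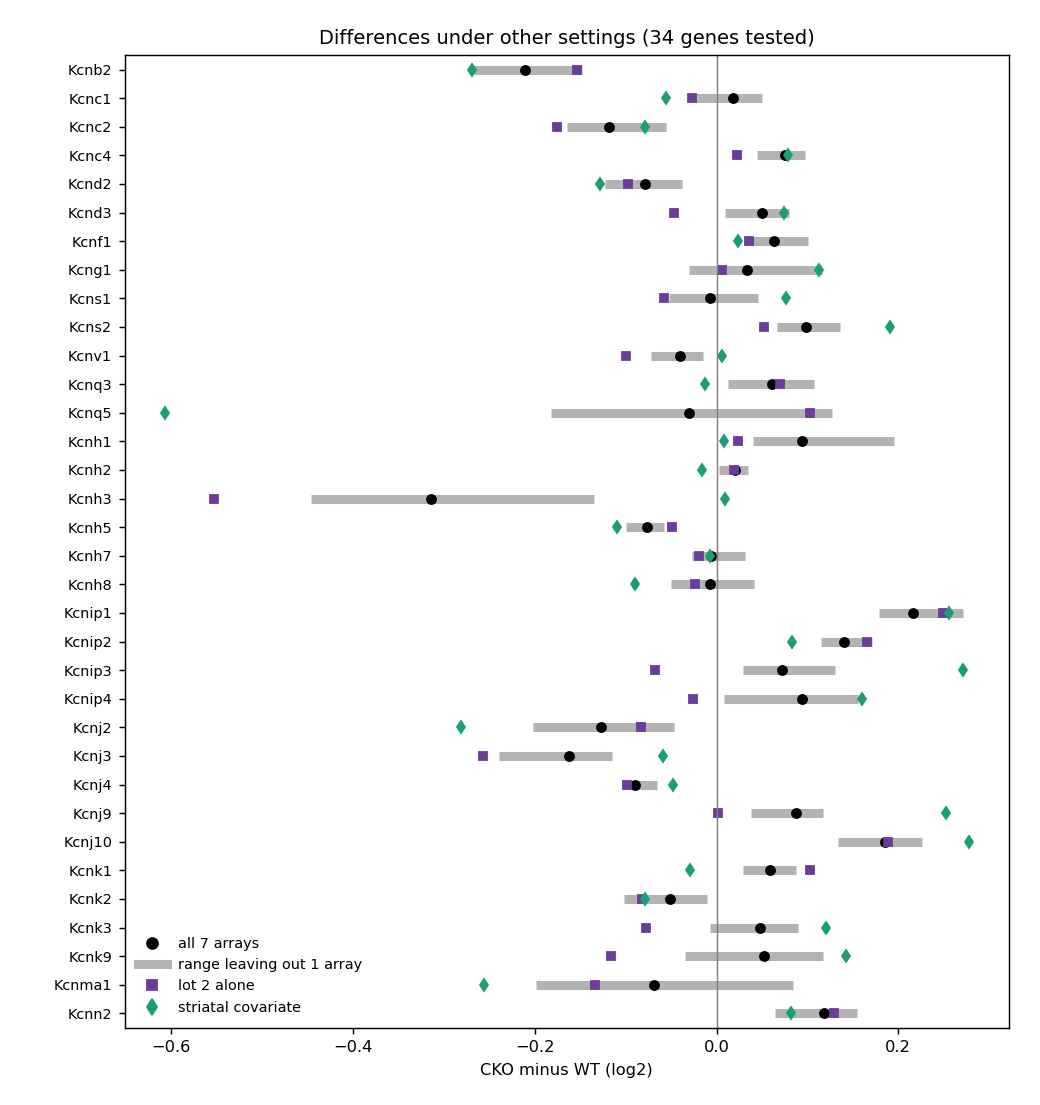
CKO minus WT on the log2 scale for the 34 genes tested: all 7 arrays (black), the range when 1 array is left out (grey), lot 2 alone (squares) and with striatal signal as a covariate (diamonds). Kcnb2, Kcnip1, Kcnip2, Kcnj3, Kcnj4 and Kcnj10 stay on one side of 0 in all of these, as do others such as Kcnc2, Kcnd2 and Kcnn2. The groups of the named 6 did not overlap except for Kcnj3. Without overlap, leaving out an array or taking lot 2 alone could not change the sign. Kcnh3 and Kcnq5 move most.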

How the data were processed

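Total RNA of 7 samples (RNA integrity number 10, input 0.2 µg) was measured on 1 array each. The deposited values are log2 signals (median 8.23). The submitters' processing notes name RMA and Affymetrix Expression Console, without a version or genome build. RMA as usually run sets all arrays to 1 distribution, so a shift of all genes would not be seen. Of 35468 probe sets, 21786 had 1 gene symbol, 1621 several and 12061 none; only the first were used. Probe sets with a mean below the 25th percentile were left out, and the brightest stood for each gene.

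The 4 CKO arrays were set against the 3 WT arrays in limma 3.58.1 (lmFit, eBayes; 5 residual and 3.28 prior degrees of freedom) in R 4.3.3, with Benjamini-Hochberg adjustment over 16144 genes at 0.05. Errors beside differences are limma's SE. The fit was tested on simulated data with independent noise and no array lots, so that test does not cover effects shared by arrays. Values on every array are given for members without overlap or with an unadjusted p under 0.05, otherwise for the smallest p of a class; all 35 are named, with up to 3 genes of each other list. Kcnq5 and Kcnma1 were given in full, and Amigo1, Dpp6, Dpp10, Chrm1, Calm2, Calm3 and the marker genes named, after their values were seen. Members and lists were chosen with earlier results of these data known. Alternatives covered normalization, filter, probe set averaging, variance model, array weights, the inferred array lot, Y-linked and striatal covariates, a threshold of 0.1 and leaving out each array. Figures used matplotlib 3.10.9. The number of arrays limits the precision.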

Additional observations from a re-analysis of the deposited data

How the results depend on the processing

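No member passed the adjusted threshold under any of the 20 alternatives run with limma, where the smallest adjusted p of a member was 0.285 (Kcnb2), and 18 of the 35 members kept their direction in all of those that could be computed for them. Kcnj6, one of these 18, was tested in the fit without a filter alone. That fit also gave its main value, so its direction could not change. Leaving out an array or taking lot 2 alone could not turn a member whose groups did not overlap either. Members without overlap numbered 5 over all arrays, 17 within lot 2 alone, where 30.4% of all genes had none, and 6 to 10 when 1 array was left out: 10 without WT 6, 9 without WT 27 and 8 each without CKO 1 and without CKO 4. Members at an unadjusted p under 0.05 numbered 5, 8 with cyclic loess (7.33% of all genes) or with array weights (4.60%), and 4 with the Y-linked covariate (5.56%), without CKO 34 (6.92%) and without CKO 43 (5.73%), Kcnj3 being the one lost. Such members numbered 7 with lot as a fixed block (3.78% of all genes), where Kcnb2 was lost. With the striatal covariate they numbered 7 as well (11.1%), and Kcnip2 and Kcnj3 were lost. No paired analysis was possible because the groups share no replicate numbers.

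The cause of the following turns in direction was not tested. With lot as a fixed block, as within lot 2 alone, the difference was -0.027 for Kcnc1, -0.047 for Kcnd3, -0.068 for Kcnip3, -0.026 for Kcnip4, -0.077 for Kcnk3, -0.12 for Kcnk9 and 0.10 for Kcnq5. With the striatal covariate it was -0.055 for Kcnc1, 0.076 for Kcns1, 0.0065 for Kcnv1, -0.012 for Kcnq3, -0.016 for Kcnh2, 0.0095 for Kcnh3 and -0.029 for Kcnk1. With array weights it was -0.028 for Kcng1, 0.072 for Kcnq5 and 0.0081 for Kcnh7, with lot as a random block 0.0039 for Kcnq5, and with the Y-linked covariate 0.025 for Kcnh8. When 1 array was left out, differences ran from -0.026 to 0.050 for Kcnc1, -0.031 to 0.12 for Kcng1, -0.053 to 0.045 for Kcns1, -0.18 to 0.13 for Kcnq5, -0.028 to 0.031 for Kcnh7, -0.050 to 0.041 for Kcnh8, -0.0068 to 0.090 for Kcnk3, -0.035 to 0.12 for Kcnk9 and -0.20 to 0.084 for Kcnma1.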
